A study of Mus musculus with 18 samples.

Results

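The genes described here are Tsc1, Tsc2, Tbc1d7, Rheb, Rraga, Rragc, Flcn, Fnip1, Depdc5 and Nprl2, which tell the growth kinase complex mTORC1 whether growth factors and amino acids are at hand. They were picked by symbol as core parts of this circuit, 10 of the 15307 gene features with reads, and each had a row in the tables and counts in all 18 libraries. The cells were GTML cells, a line from medulloblastomas of mice in which the Glt1 promoter drives human MYCN with a luciferase reporter in hindbrain progenitors, grown in neural stem cell medium with EGF and bFGF. Every group therefore carried overexpressed human MYCN, and all of the libraries come from the line of that name. The cells received 50 nM Rapalink-1, 5 nM rapamycin or DMSO, the solvent, for 3 h, with 3 replicates of each. Rapamycin binds mTORC1 at a site away from the catalytic centre, while Rapalink-1 joins a rapamycin-like part to an inhibitor of the ATP site, so the treatments differed in compound and in dose. From every lysate both ribosome footprints, the stretches of mRNA that translating ribosomes shield from nuclease, and total RNA were sequenced. In the column headings, footprint libraries of Rapalink-1 and DMSO carry the tag RP-B and those of rapamycin RP, with no meaning given there. Rapamycin libraries of both assays are also numbered after all others. In comparisons with rapamycin these differences cannot be told apart from the drug, and their part was not tested. Nothing in the labels says that the replicates were separate cultures, so p-values measure the spread between these samples, which may be technical.

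In textbook outline, Rheb bound to GTP switches on mTORC1 at the lysosome surface. The TSC complex, made of Tsc1, Tsc2 and Tbc1d7, makes Rheb hydrolyse its GTP and so holds mTORC1 down until growth factor signals relieve it. Amino acids act by another arm: pairs of Rag GTPases, Rraga or Rragb with Rragc or Rragd, carry mTORC1 to the lysosome. GATOR1, made of Depdc5, Nprl2 and Nprl3, switches off RagA or RagB when amino acids are short, and folliculin (Flcn) with Fnip1 or Fnip2 acts on the RagC or RagD side. In mouse and human cells folliculin also decides whether TFEB and TFE3, transcription factors of lysosome genes that bind the E-box CACGTG, are held in the cytoplasm by mTORC1.

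The sequence upstream of Flcn and of Fnip1 is shown because these were the members whose RNA and footprints differed most from DMSO with Rapalink-1. Sequences are from RefSeq for build GRCm38.p6, all 10 members matched the table, and capitals mark the E-box. The Flcn stretch is chr11:59810040-59810289 on the minus strand and ends at the base before the start site. The Fnip1 stretch is chr11:54437929-54438129 on the plus strand, and its E-box begins 75 bases before the start site used, which lies 72 bases inside the annotated gene.
Flcn: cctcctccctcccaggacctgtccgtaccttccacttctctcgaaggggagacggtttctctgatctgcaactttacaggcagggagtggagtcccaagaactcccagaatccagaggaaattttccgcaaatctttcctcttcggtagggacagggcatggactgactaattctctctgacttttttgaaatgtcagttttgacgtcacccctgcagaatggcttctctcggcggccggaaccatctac
Fnip1: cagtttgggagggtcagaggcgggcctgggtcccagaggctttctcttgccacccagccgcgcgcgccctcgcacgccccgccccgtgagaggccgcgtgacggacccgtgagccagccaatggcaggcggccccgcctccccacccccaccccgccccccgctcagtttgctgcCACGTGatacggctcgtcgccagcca

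The E-box CACGTG, which reads the same on both strands, was searched in the 250 bases before each start site. It was found in 4 of the 10 members, Tbc1d7, Rheb, Rragc and Fnip1, against 6.02% of the 32851 windows of the same length in the table. The windows of the other 3 are shown to let the letters around the motif be compared, at chr13:43171529-43171574 on the minus strand for Tbc1d7, chr5:24842432-24842477 on the minus strand for Rheb and chr4:123917301-123917346 on the plus strand for Rragc.
Tbc1d7: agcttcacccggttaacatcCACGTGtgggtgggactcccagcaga
Rheb: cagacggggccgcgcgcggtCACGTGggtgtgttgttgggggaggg
Rragc: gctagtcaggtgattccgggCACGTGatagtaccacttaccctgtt
The E-box began 53 bases before the start site in Tbc1d7, 96 in Rheb and 112 in Rragc. Total RNA rose with Rapalink-1 in Fnip1 and did not pass the test in the other 3, and Flcn RNA rose with no CACGTG in its window. Whether the motif had a part in any change was not tested. The forkhead motif GTAAACA, searched on both strands, was in none of the 10 windows and in 3.17% of all windows. A match to these letters is a description and not a binding site.

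Libraries held 7692625 to 14150068 footprint reads and 6788365 to 13300292 RNA reads. Levels of the members and pathway genes below are CPM, counts scaled to library size with TMM factors. Translational efficiency is the ratio of footprint CPM to RNA CPM of the same lysate. The marker levels in this paragraph are CPM by library totals without TMM factors, so their scale differs from that of the members. A gene was called changed at an adjusted p under 0.05 in edgeR's quasi-likelihood test with Benjamini-Hochberg adjustment over all genes tested, and all adjusted p-values below are from that test. The labels name no spike-in, so a change is a shift within the library as a whole, and fewer cells and less RNA per cell cannot be told apart. Without TMM scaling the median log2 change over all genes with Rapalink-1 against DMSO was -0.13 in RNA, 0.28 in footprints and 0.43 in efficiency, against 0, 0.01 and 0.06 with it. Of 11 neural progenitor and granule lineage markers 7 had a row (Nes, Zic1, Zic2, Pax6, Mki67, Neurod1 and Slc1a3), with summed RNA of 565.9 to 605.7 CPM with Rapalink-1, 773.8 to 819.5 CPM with rapamycin and 553.3 to 614.9 CPM with DMSO. Their summed footprints were 1466.2 to 1523.8 CPM with Rapalink-1, 872.2 to 933.8 CPM with rapamycin and 766.0 to 808.0 CPM with DMSO, and their part in the results was not tested. Of 24 markers of mature oligodendrocytes, of microglia and blood, and of vessels and fibroblasts only Cnp, Itgam, Hbb-bs and Acta2 had a row, and the others were not analysed here. Of these, Itgam and Hbb-bs together had footprints of 26 to 29 CPM with Rapalink-1, 58.1 to 73.2 CPM with rapamycin and 52.1 to 78.3 CPM with DMSO. Their RNA was 98.8 to 108.9 CPM with Rapalink-1, 106.9 to 122.5 CPM with rapamycin and 105.2 to 147.9 CPM with DMSO. Cnp RNA was 11.6 to 15.4 CPM with Rapalink-1, 11.6 to 12 CPM with rapamycin and 7.7 to 10.6 CPM with DMSO, so both drugs lay above DMSO, and its footprints were 14.6 to 17.8 CPM with Rapalink-1, 15.1 to 16.6 CPM with rapamycin and 11.9 to 15.1 CPM with DMSO. Acta2 footprints were 268.4 to 284.9 CPM with Rapalink-1, 233.1 to 264.2 CPM with rapamycin and 259.3 to 297.4 CPM with DMSO, and its RNA was 35.6 to 38.4 CPM with Rapalink-1, 31.8 to 36 CPM with rapamycin and 31.8 to 41.8 CPM with DMSO. The part of these 4 genes in the results was not tested either.

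Rapalink-1 changed the footprints of 5 of the 10 genes against DMSO (53.7% over all genes), 4 upward and 1 downward, and rapamycin changed none (18.1% over all genes). Flcn and Fnip1 gained most, at 2.35-fold and 2.21-fold the DMSO footprints, Rheb and Depdc5 gained less, and Tsc2 lost. In total RNA, Rapalink-1 raised Tsc1, Flcn and Fnip1 and lowered Rraga, while rapamycin raised Tsc2 and Depdc5. Tbc1d7 and Rragc passed the test in no comparison with TMM scaling.

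**Figure D1:**
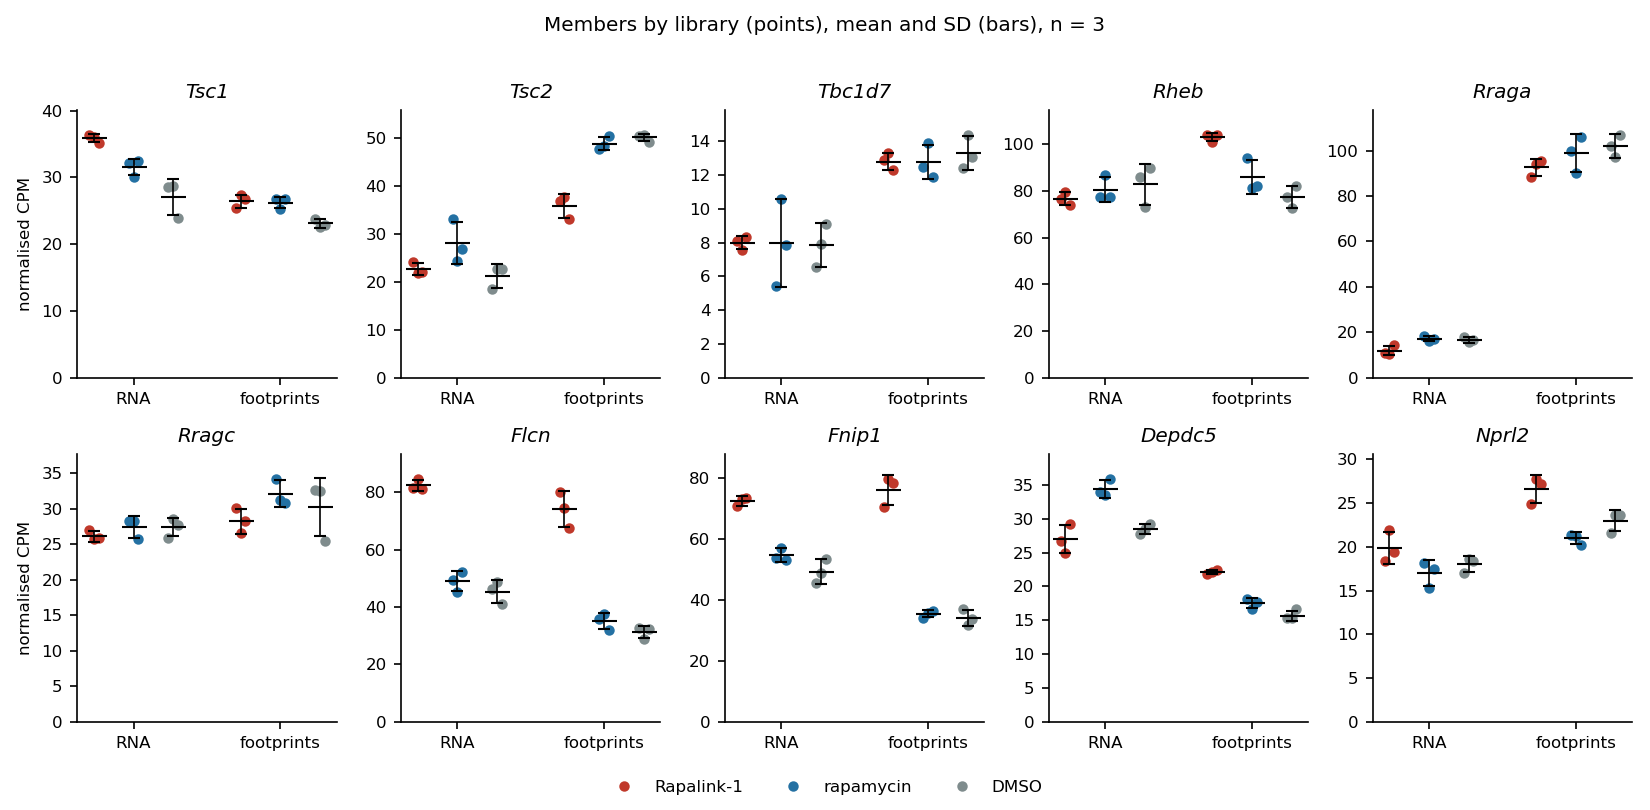
Normalised CPM (y axis, from 0, own scale per gene) of the 10 genes in RNA and footprint libraries with Rapalink-1, rapamycin and DMSO. Points are libraries and bars the mean and SD of 3; the Rapalink-1 points of Flcn and Fnip1 stand above all others in both assays, and those of Tsc2 stand below in footprints.

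These counts read as follows against the background of all genes. For Rapalink-1 against DMSO, 4 of 10 members were called in RNA (38.2% of all genes tested), 3 higher (19.4%) and 1 lower (18.8%). In footprints 5 of 10 were called (53.7%), 4 higher (25.7%) and 1 lower (28.0%), and in efficiency 6 of 10 (42.2%), 5 higher (22.3%) and 1 lower (19.9%). For rapamycin against DMSO, 2 of 10 were called in RNA (24.1%), 2 higher (13.6%) and 0 lower (10.5%). In footprints it was 0 of 10 (18.1%; 8.75% higher and 9.40% lower over all genes), and in efficiency 1 of 10 (16.4%), 0 higher (6.52%) and 1 lower (9.85%). For the 0 in footprints with rapamycin, 1 member, Rheb, had an unadjusted p of 0.04 in edgeR, and DESeq2 also called 0. The median log2 change of the members with Rapalink-1 against DMSO was 0.07 in RNA, 0.20 in footprints and 0.25 in efficiency, beside 0, 0.01 and 0.06 over all genes tested. The treatments share their DMSO libraries, so what the comparisons have in common is not independent.

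**Figure D2:**
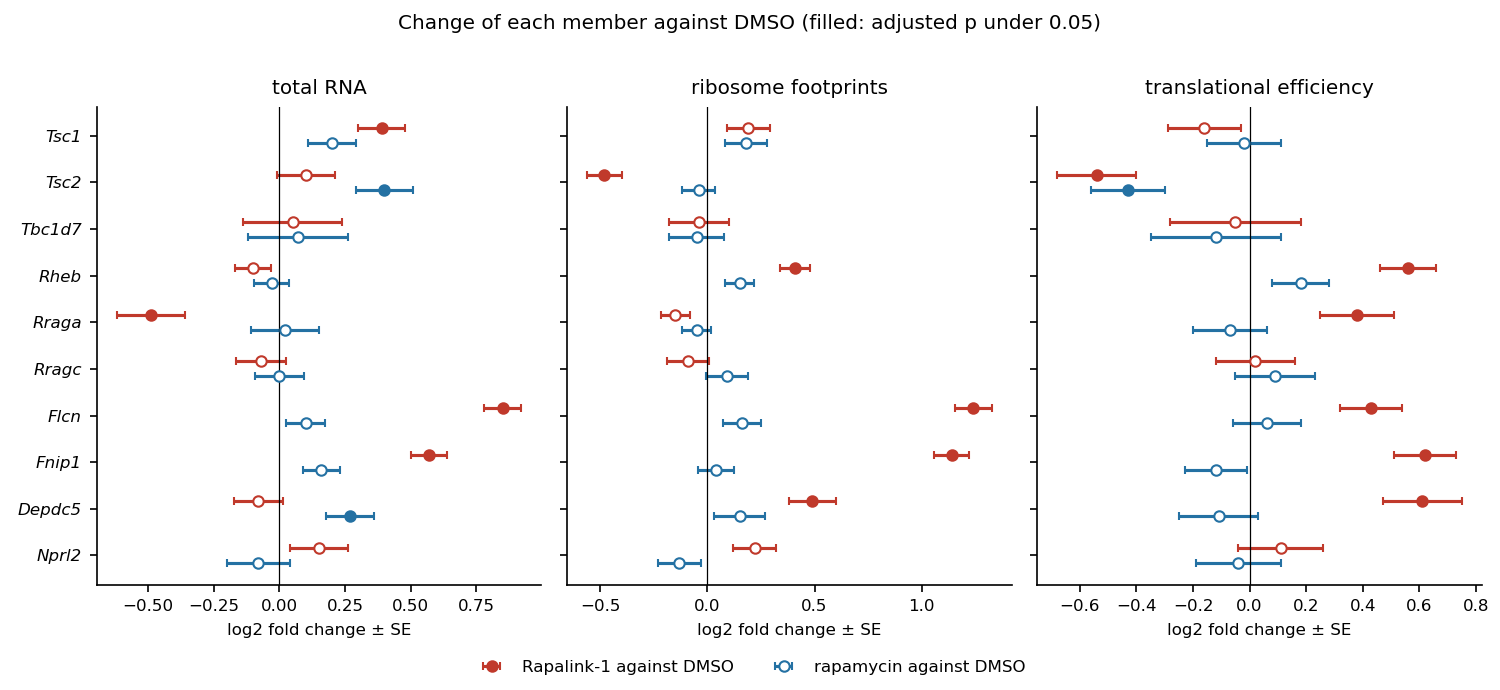
Log2 fold change against DMSO (x axis, ± SE, n = 3 per group) of each gene in total RNA, footprints and translational efficiency, Rapalink-1 above rapamycin, with filled points for an adjusted p under 0.05. Flcn and Fnip1 lie farthest right in footprints with Rapalink-1 at 1.24 and 1.14, and no rapamycin point is filled there.

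The TSC complex did not move as a unit (gene positions here and below are spans in build GRCm38). Tsc1 (hamartin, chr2:28640993-28691172), the scaffold that stabilises Tsc2, had 36.4, 36.0 and 35.2 CPM in RNA with Rapalink-1, 32.2, 30.1 and 32.4 CPM with rapamycin, and 28.6, 28.7 and 23.9 CPM with DMSO. All Rapalink-1 values lay above all others, and those of rapamycin lay between. Tsc1 RNA rose by 0.39 ± 0.09 (log2, SE, n = 3; adjusted p = 0.00046) with Rapalink-1, and its change of 0.20 ± 0.092 with rapamycin did not pass (adjusted p = 0.10). In footprints Tsc1 had 25.4, 27.3 and 26.7 CPM with Rapalink-1, 26.7, 25.3 and 26.7 CPM with rapamycin, and 23.8, 22.6 and 22.9 CPM with DMSO. Both drugs lay above DMSO without overlap, but the log2 differences of 0.19 (adjusted p = 0.11) and 0.18 (adjusted p = 0.21) did not pass. Without TMM scaling the Tsc1 values with Rapalink-1 were 0.26 in RNA and, now passing, 0.46 in footprints.

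Tsc2 (tuberin, chr17:24595816-24632676), the subunit that carries the GTPase-activating domain for Rheb, was the member whose footprints fell. It had 37.0, 37.7 and 33.1 CPM in footprints with Rapalink-1, 47.8, 48.5 and 50.5 CPM with rapamycin, and 50.6, 50.8 and 49.3 CPM with DMSO. The Rapalink-1 values lay below all others. The log2 change was -0.48 ± 0.081 with Rapalink-1 (n = 3, adjusted p = 3.4e-06), a footprint level 0.716-fold that with DMSO, and -0.04 with rapamycin (adjusted p = 0.80). Without TMM scaling the fall with Rapalink-1 was -0.21 (adjusted p = 0.026).

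Tsc2 RNA went a different way. It had 24.2, 21.9 and 22.1 CPM with Rapalink-1, 33.1, 24.5 and 26.9 CPM with rapamycin, and 18.5, 22.7 and 22.8 CPM with DMSO. Rapalink-1 and DMSO overlapped, and rapamycin lay above both, mostly through replicate 1. The change was 0.10 with Rapalink-1 (adjusted p = 0.52) and 0.40 ± 0.11 with rapamycin (adjusted p = 0.0062), and this was not called without rapamycin replicate 1 (0.27, adjusted p = 0.11) or DMSO replicate 1 (0.30, adjusted p = 0.089). The efficiency of Tsc2 was 1.57, 1.76 and 1.52 with Rapalink-1, 1.44, 1.96 and 1.87 with rapamycin, and 2.72, 2.22 and 2.14 with DMSO, so that both drugs lay below DMSO. It fell by 0.54 ± 0.14 on the log2 scale with Rapalink-1 (adjusted p = 0.0011) and by 0.43 ± 0.13 with rapamycin (adjusted p = 0.018). The Rapalink-1 call was lost without TMM scaling (-0.17, adjusted p = 0.28). The rapamycin call was lost without the lysate of rapamycin replicate 1 (-0.29, adjusted p = 0.20) or of DMSO replicate 1 (-0.33, adjusted p = 0.17). Tsc2 overlaps its neighbour Pkd1 by 699 bases, and strand use in counting is not given in the sources used here, so reads from that stretch cannot be told apart.

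Tbc1d7 (chr13:43151740-43171501), the smallest subunit, was the least covered gene, with 53 to 133 RNA reads and 103 to 164 footprint reads per library. Its RNA was 7.59 to 8.35 CPM with Rapalink-1, 5.45 to 10.6 CPM with rapamycin and 6.55 to 9.12 CPM with DMSO, and its footprints were 12.3 to 13.3 CPM with Rapalink-1, 11.9 to 13.9 CPM with rapamycin and 12.4 to 14.4 CPM with DMSO. The groups overlapped in both assays. The footprint change with Rapalink-1 was -0.04 with a 95% interval of -0.31 to 0.22, so changes of that size or less were not detectable at this depth.

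Rheb (chr5:24802823-24842361), the GTPase that activates mTORC1, gained footprints without more RNA. Its RNA was 76.6, 79.5 and 73.7 CPM with Rapalink-1, 77.5, 86.6 and 77.3 CPM with rapamycin, and 85.7, 72.9 and 89.7 CPM with DMSO. These groups overlapped, and neither change passed (Rapalink-1 -0.10, adjusted p = 0.23; rapamycin -0.03, adjusted p = 0.79). Rheb footprints were 104, 101 and 104 CPM with Rapalink-1, 94.1, 81.0 and 82.1 CPM with rapamycin, and 77.3, 72.6 and 82.2 CPM with DMSO. The Rapalink-1 values lay above all others, and rapamycin overlapped DMSO. Footprints rose by 0.41 ± 0.069 with Rapalink-1 (1.33-fold, n = 3, adjusted p = 2.9e-06), while the 0.15 ± 0.069 with rapamycin did not pass (adjusted p = 0.14). Rheb efficiency was 1.39, 1.30 and 1.44 with Rapalink-1, 1.21, 0.925 and 1.06 with rapamycin, and 0.898, 0.990 and 0.905 with DMSO. It rose by 0.56 ± 0.10 with Rapalink-1 (adjusted p = 7.7e-06), and the rapamycin value of 0.18 did not pass (adjusted p = 0.24). Without TMM scaling Rheb RNA fell with Rapalink-1 (-0.24, adjusted p = 0.0041), as it did without DMSO replicate 2 (-0.19, adjusted p = 0.020), and footprints rose by 0.69.

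Of the Rag GTPases, Rraga changed in RNA and Rragc did not pass in either assay. Rraga (RagA, chr4:86575673-86577285) had 11, 10.6 and 14.4 CPM in RNA with Rapalink-1, 18.2, 16 and 17.1 CPM with rapamycin, and 18.1, 15.6 and 16.7 CPM with DMSO. All Rapalink-1 values lay below the others. Its RNA fell by 0.49 ± 0.13 with Rapalink-1 (adjusted p = 0.0026) and differed by 0.02 with rapamycin (adjusted p = 0.93). Footprints were 88.3, 93.9 and 95.5 CPM with Rapalink-1, 100, 90.1 and 106 CPM with rapamycin, and 102, 97.3 and 107 CPM with DMSO. Rapalink-1 lay below DMSO by a narrow margin, and the difference of -0.15 ± 0.068 did not pass (adjusted p = 0.063). It passed without DMSO replicate 2 (-0.18, adjusted p = 0.040) and with no low-count filter (-0.16, adjusted p = 0.048). Without TMM scaling its sign turned, to 0.12, which did not pass (adjusted p = 0.12).

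Rraga carried far more footprints per RNA read than the other members. Its efficiency was 8.24, 9.02 and 6.76 with Rapalink-1, 5.48, 5.57 and 6.21 with rapamycin, and 5.62, 6.20 and 6.36 with DMSO, where it stood at percentile 98.5 of the 10988 genes with an efficiency. Gene length enters both assays, but whether both were counted over the same bases is not given in the sources used here. Ranks across genes are therefore of the ratio as counted. The Rapalink-1 lysates lay above all others, and efficiency rose by 0.38 ± 0.13 (adjusted p = 0.018), against -0.07 with rapamycin (adjusted p = 0.79). The rise was not called without the lysate of DMSO replicate 1 (0.31, adjusted p = 0.11), Rapalink-1 replicate 1 (0.35, adjusted p = 0.066) or Rapalink-1 replicate 2 (0.29, adjusted p = 0.12), and was 0.75 without TMM scaling. Rraga and its close copy Rragb share coding sequence, and how reads that match both were counted is not given in the sources used here.

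Rragc (RagC, chr4:123917433-123936997), the partner that reads amino acid state on the folliculin side, had 27.0, 25.7 and 25.8 CPM in RNA with Rapalink-1, 28.3, 28.2 and 25.7 CPM with rapamycin, and 25.9, 28.6 and 27.7 CPM with DMSO. Its footprints were 30.1, 26.5 and 28.2 CPM with Rapalink-1, 34.2, 31.2 and 30.8 CPM with rapamycin, and 32.6, 32.5 and 25.5 CPM with DMSO. The groups overlapped in both assays when set against DMSO. Its footprint changes against DMSO were -0.09 with Rapalink-1 (95% interval -0.29 to 0.11) and 0.09 with rapamycin (-0.10 to 0.28). The Rapalink-1 footprints lay just below those with rapamycin, a difference of -0.18 ± 0.098 that did not pass (adjusted p = 0.12). The efficiency change of Rragc with Rapalink-1 against DMSO was 0.02 (adjusted p = 0.94), but without TMM scaling it passed, at 0.38 (adjusted p = 0.017).

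**Figure D3:**
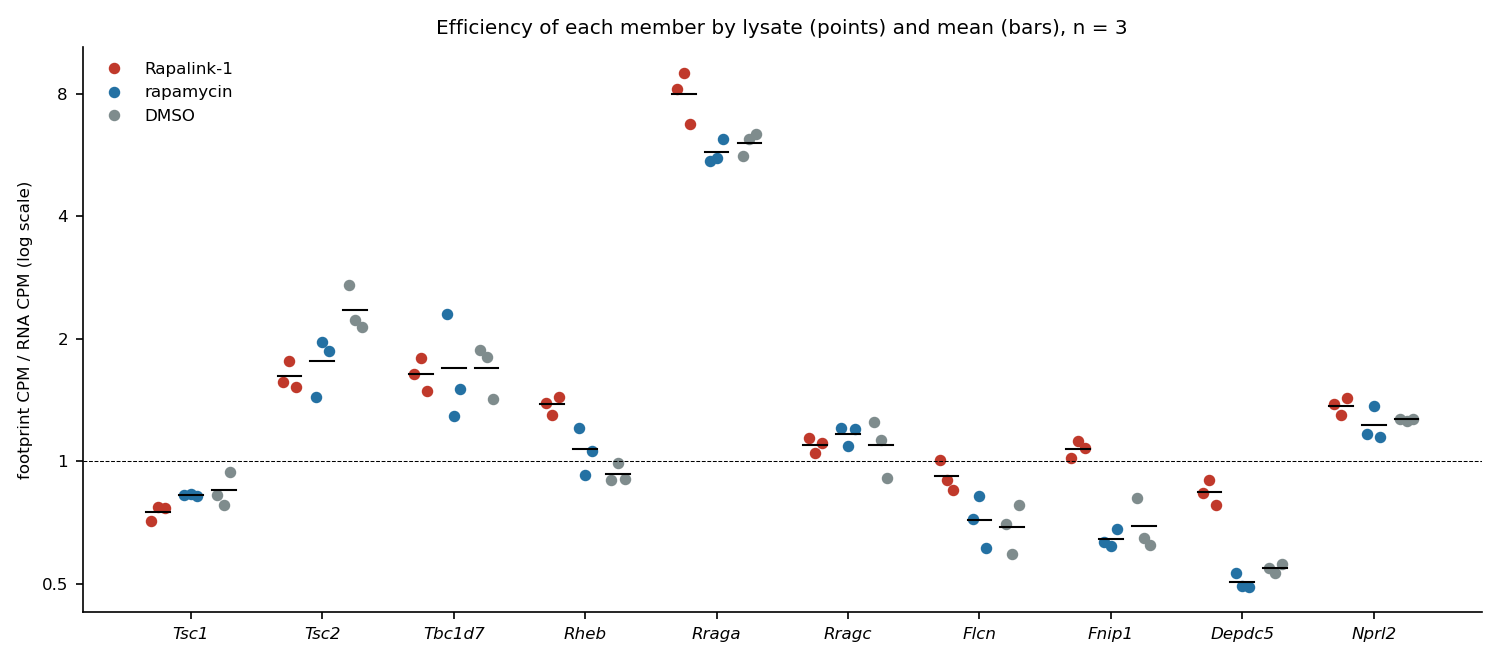
Footprint CPM divided by RNA CPM (y axis, log scale) of each gene in every lysate with Rapalink-1, rapamycin and DMSO; points are lysates and bars the mean of 3. Rraga stands apart at 5.48 to 9.02, and the Rapalink-1 lysates of Rheb, Rraga, Flcn, Fnip1 and Depdc5 lie above all of their rapamycin and DMSO lysates.

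Flcn and Fnip1 rose in both RNA and footprints with Rapalink-1. Flcn (folliculin, chr11:59791408-59810039), which makes RagC and RagD hydrolyse GTP, had 81.5, 84.7 and 81.0 CPM in RNA with Rapalink-1, 49.5, 45.3 and 52.3 CPM with rapamycin, and 46.3, 48.8 and 41.1 CPM with DMSO. The Rapalink-1 libraries stood far above the rest, and rapamycin overlapped DMSO. RNA rose by 0.85 ± 0.071 with Rapalink-1 (1.80-fold, n = 3, adjusted p = 3.5e-13), against 0.10 with rapamycin (adjusted p = 0.38). Flcn footprints were 80.1, 74.5 and 67.7 CPM with Rapalink-1, 35.8, 37.7 and 32.0 CPM with rapamycin, and 32.6, 29.0 and 32.4 CPM with DMSO. Again Rapalink-1 stood apart and rapamycin touched DMSO. Footprints rose by 1.24 ± 0.085 with Rapalink-1 (2.35-fold, adjusted p = 1.3e-15), and the 0.16 with rapamycin did not pass (adjusted p = 0.25). The efficiency of Flcn was 1.01, 0.899 and 0.849 with Rapalink-1, 0.720, 0.823 and 0.612 with rapamycin, and 0.701, 0.591 and 0.780 with DMSO. It rose by 0.43 ± 0.11 with Rapalink-1 (adjusted p = 0.0018). Without TMM scaling the Flcn changes with Rapalink-1 were 0.71 in RNA and 0.79 in efficiency.

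Fnip1 (chr11:54438107-54518241), the partner that folliculin needs for its activity, rose in RNA and in efficiency with Rapalink-1, by 0.57 and 0.62 on the log2 scale and by 0.43 and 0.99 without TMM scaling. Its RNA was 70.8, 73.1 and 73.6 CPM with Rapalink-1, 53.9, 57.2 and 53.2 CPM with rapamycin, and 45.5, 48.9 and 53.5 CPM with DMSO. Rapalink-1 lay above all others, and rapamycin overlapped DMSO at the top of the DMSO range. The RNA change was 0.57 ± 0.07 with Rapalink-1 (1.48-fold, adjusted p = 9.7e-09), and the 0.16 with rapamycin did not pass (adjusted p = 0.095) other than without DMSO replicate 3 (0.22, adjusted p = 0.034). Fnip1 footprints were 70.6, 79.8 and 78.3 CPM with Rapalink-1, 34.2, 35.9 and 36.3 CPM with rapamycin, and 37.1, 31.8 and 33.7 CPM with DMSO. They rose by 1.14 ± 0.081 with Rapalink-1 (2.21-fold, adjusted p = 2.8e-15) and differed by 0.04 with rapamycin (adjusted p = 0.79). Efficiency was 1.02, 1.12 and 1.08 with Rapalink-1, 0.633, 0.620 and 0.682 with rapamycin, and 0.811, 0.647 and 0.622 with DMSO, a rise of 0.62 ± 0.11 with Rapalink-1 (adjusted p = 4.9e-06). The annotated genes LOC115487771 and LOC115487859 overlap Fnip1, the longest overlap being 23797 bases, and their reads could be counted with Fnip1.

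In GATOR1, Depdc5 rose in footprints with Rapalink-1 while its RNA did not pass. Depdc5 (chr5:32863646-32994233), the subunit that docks on the Rag pair, had 26.7, 25 and 29.2 CPM in RNA with Rapalink-1, 33.9, 33.5 and 35.9 CPM with rapamycin, and 27.8, 28.5 and 29.2 CPM with DMSO. Rapamycin lay above both other groups. RNA differed by -0.08 with Rapalink-1 (adjusted p = 0.54) and rose by 0.27 ± 0.091 with rapamycin (adjusted p = 0.023), a call lost without DMSO replicate 1 (0.25, adjusted p = 0.085) or rapamycin replicate 3 (0.24, adjusted p = 0.094). Footprints were 21.8, 22.1 and 22.4 CPM with Rapalink-1, 18.1, 16.7 and 17.7 CPM with rapamycin, and 15.3, 15.3 and 16.6 CPM with DMSO. All groups were apart, with Rapalink-1 highest and rapamycin just over DMSO. Footprints rose by 0.49 ± 0.11 with Rapalink-1 (adjusted p = 0.00043), 0.76 without TMM scaling, and the 0.15 with rapamycin did not pass (adjusted p = 0.40). Depdc5 efficiency, at percentile 16.1 of all genes with DMSO and the lowest of the members, was 0.837, 0.901 and 0.782 with Rapalink-1, 0.533, 0.493 and 0.492 with rapamycin, and 0.548, 0.533 and 0.560 with DMSO. It rose by 0.61 ± 0.14 with Rapalink-1 (adjusted p = 0.00041). Without TMM scaling the efficiency changes with Rapalink-1 were larger, at 0.98 for Depdc5, 0.93 for Rheb, 0.79 for Flcn and 0.99 for Fnip1.

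Nprl2 (chr9:107542177-107545706), the GATOR1 subunit with the catalytic residue for RagA, passed against DMSO in no measure. Its footprints were 24.9, 27.8 and 27.2 CPM with Rapalink-1, 21.4, 21.3 and 20.2 CPM with rapamycin, and 21.6, 23.6 and 23.7 CPM with DMSO. Rapalink-1 lay above DMSO and rapamycin below it, each without overlap. The differences of 0.22 ± 0.10 with Rapalink-1 (adjusted p = 0.077) and -0.13 with rapamycin (adjusted p = 0.45) did not pass, and without TMM scaling the Rapalink-1 value was 0.49 (adjusted p = 9.8e-05), with an efficiency change of 0.48 (adjusted p = 0.0059). Nprl2 RNA, at 18.4 to 21.9 CPM with Rapalink-1, 15.3 to 18.2 CPM with rapamycin and 17.0 to 18.6 CPM with DMSO, overlapped DMSO with either drug.

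The treatments were also set against each other, at unlike doses of 50 nM Rapalink-1 and 5 nM rapamycin. In this comparison 5 of 10 members were called in RNA (41.1% of all genes), 2 higher (19.6%) and 3 lower (21.5%). In footprints it was 6 of 10 (53.1%), 5 higher (25.4%) and 1 lower (27.6%), and in efficiency 5 of 10 (50.1%), 5 higher (26.1%) and 0 lower (23.9%). Footprints were higher with Rapalink-1 for Flcn (1.08 ± 0.082, adjusted p = 2.8e-14), Fnip1 (1.1 ± 0.078, adjusted p = 4.4e-15), Rheb (0.27 ± 0.067, adjusted p = 0.00091), Depdc5 (0.33 ± 0.11, adjusted p = 0.010) and Nprl2 (0.34 ± 0.10, adjusted p = 0.0048), and lower for Tsc2 (-0.44 ± 0.08, adjusted p = 1e-05). In RNA, Flcn (0.75, adjusted p = 6.5e-12) and Fnip1 (0.40, adjusted p = 5.2e-06) were higher with Rapalink-1, and Tsc2 (-0.30, adjusted p = 0.022), Rraga (-0.51, adjusted p = 0.0013) and Depdc5 (-0.35, adjusted p = 0.0013) were lower. The Tsc2 call was lost without rapamycin replicate 1 (-0.17, adjusted p = 0.26), Rapalink-1 replicate 2 (-0.27, adjusted p = 0.081) or Rapalink-1 replicate 3 (-0.28, adjusted p = 0.072). Efficiency was higher with Rapalink-1 for Fnip1 (0.74, adjusted p = 4.5e-08), Depdc5 (0.72, adjusted p = 1.3e-05), Rraga (0.45, adjusted p = 0.0039), Rheb (0.38, adjusted p = 0.0011) and Flcn (0.37, adjusted p = 0.0043). That of Flcn was not called without Rapalink-1 replicate 1 (0.29, adjusted p = 0.054) or rapamycin replicate 3 (0.26, adjusted p = 0.076). Tsc2 efficiency, which both drugs lowered against DMSO, did not pass between them, with a difference of -0.11 (adjusted p = 0.53). Without TMM scaling the footprint differences between the drugs were 0.49 for Rheb, 0.56 for Depdc5, 0.56 for Nprl2 and -0.22 for Tsc2, and the RNA difference of Fnip1 was 0.26.

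Among the other Rag, Ragulator and folliculin partner genes, all 9 of which were tested, Rapalink-1 raised the footprints of 3 and lowered those of 1 against DMSO (25.7% higher and 28.0% lower over all genes), and rapamycin raised 2 and lowered 0 (8.75% and 9.40%). Those 2 were Rragd and Lamtor2, and without DMSO replicate 1 neither was called; Lamtor2 was then at 0.21 (adjusted p = 0.13), and without rapamycin replicate 1 at 0.26 (adjusted p = 0.058). Rragb, which can take the place of Rraga in the Rag pair, had footprints of 36.7, 35.8 and 37.8 CPM with Rapalink-1, 22.7, 21.0 and 21.1 CPM with rapamycin, and 19.0, 18.6 and 19.4 CPM with DMSO. This was a rise of 0.95 ± 0.099 with Rapalink-1 (adjusted p = 1.3e-10), and its RNA differed by 0.15 (adjusted p = 0.34), so the related RagA and RagB genes had unlike footprint values. Rragd, the counterpart of Rragc, had footprints of 27.4, 25.5 and 27.6 CPM with Rapalink-1, 23.0, 24.7 and 22.0 CPM with rapamycin, and 15.5, 17.7 and 19.5 CPM with DMSO. It rose with both drugs, by 0.62 ± 0.11 with Rapalink-1 (adjusted p = 9.8e-06) and by 0.41 ± 0.11 with rapamycin (adjusted p = 0.0073), the rapamycin call being lost without DMSO replicate 1 (0.31, adjusted p = 0.089). Slc38a9, the lysosomal arginine sensor, rose by 0.69 ± 0.16 in footprints with Rapalink-1 (adjusted p = 0.00042).

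Lamtor4, a Ragulator subunit that anchors the Rags, went the other way, with footprints of 8.63, 13.1 and 11.8 CPM with Rapalink-1, 17.0, 26.1 and 20.1 CPM with rapamycin, and 18, 18.4 and 25.4 CPM with DMSO, a fall of 0.90 ± 0.19 with Rapalink-1 (adjusted p = 0.00047). Fnip2, the other folliculin partner, had RNA of 18.5, 19.0 and 22.5 CPM with Rapalink-1, 27.5, 25.3 and 25.5 CPM with rapamycin, and 30.1, 29.4 and 26.7 CPM with DMSO. Its RNA fell by 0.53 ± 0.10 with Rapalink-1 (adjusted p = 4.5e-05), opposite to Fnip1, while its footprints differed by -0.16 (adjusted p = 0.27). In RNA Rapalink-1 raised 0 and lowered 4 of these 9 genes (19.4% higher and 18.8% lower over all genes), which were Fnip2, Lamtor1, Lamtor4 and Lamtor5, and their median change was -0.18. The count lowered was 2 without DMSO replicate 2 or Rapalink-1 replicate 1, where Lamtor1 and Lamtor4 were lost. It was 6 without TMM scaling, where 43.1% of all genes were called in either direction. The median footprint change was -0.05 with Rapalink-1 and 0.18 with rapamycin.

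**Figure D4:**
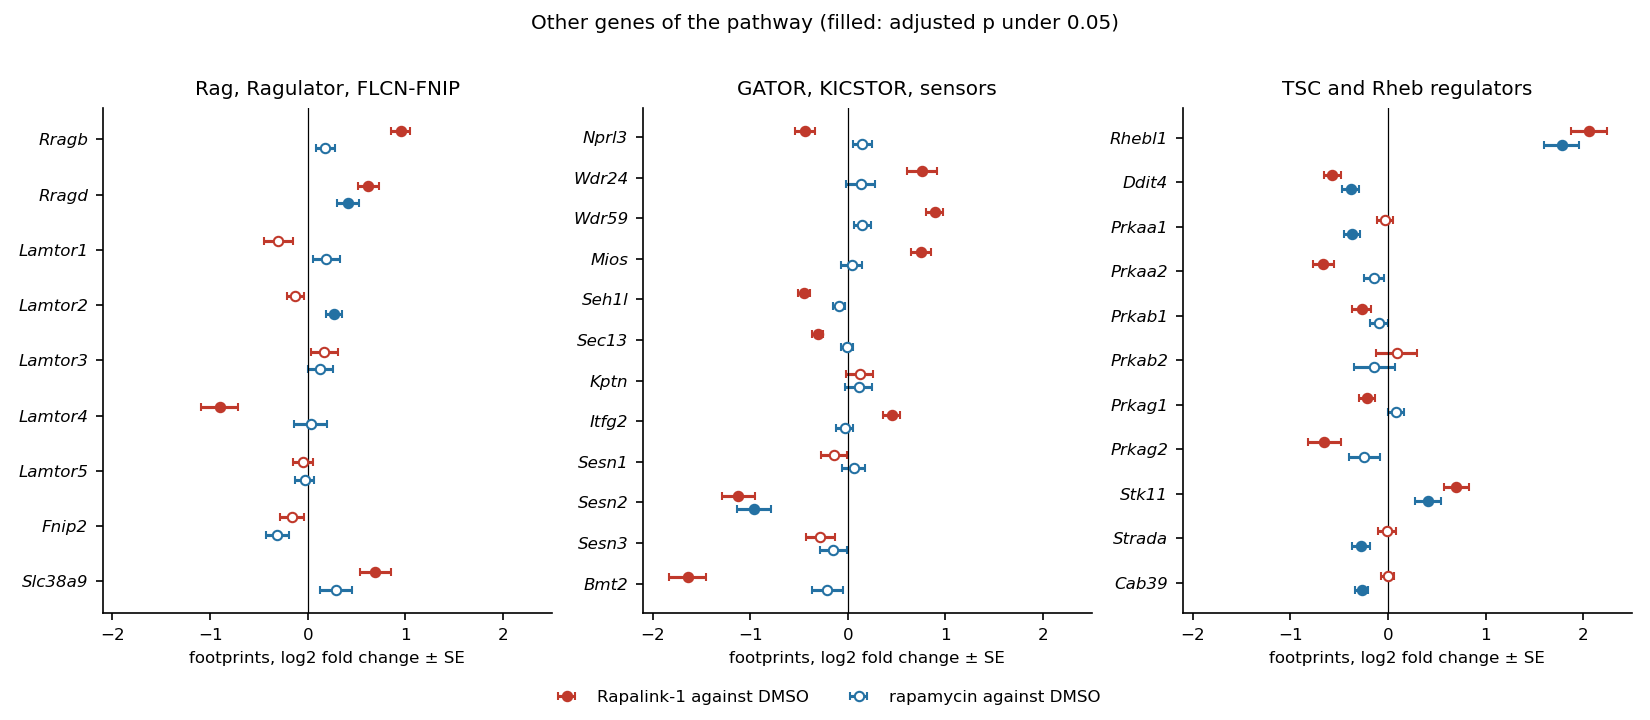
Footprint log2 fold change against DMSO (x axis, ± SE, n = 3 per group) of the other genes of the pathway that are reported, by list, Rapalink-1 above rapamycin, with filled points for an adjusted p under 0.05. Rhebl1 lies farthest right for both drugs at 2.06 and 1.78, and Bmt2 farthest left for Rapalink-1 at -1.64.

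Of the 16 other genes of GATOR1, GATOR2, the KICSTOR complex and the amino acid sensors, 13 were tested, and the rest were not analysed here. Rapalink-1 raised the footprints of 4 and lowered those of 5 (25.7% higher and 28.0% lower over all genes), with a median of -0.14. Rapamycin lowered 1 and raised none (9.40% lower and 8.75% higher over all genes), with a median of 0.04. The Rapalink-1 split was 6 raised and 3 lowered without TMM scaling, with a median of 0.14. Over all genes 61.9% were then called in either direction, with a median of 0.28. Nprl3, the remaining GATOR1 subunit, had a footprint change of -0.44 ± 0.10 with Rapalink-1 (adjusted p = 0.00055), so that within GATOR1 Depdc5 rose and Nprl3 fell. That Nprl3 call was lost without TMM scaling (-0.16, adjusted p = 0.17). In GATOR2, which opposes GATOR1, footprints of Wdr59, Mios and Wdr24 rose and those of Seh1l and Sec13 fell, the Sec13 call being lost without TMM scaling (-0.04, adjusted p = 0.62). Wdr59 had footprints of 53.6, 54.9 and 55.9 CPM with Rapalink-1, 30.2, 34.9 and 33.1 CPM with rapamycin, and 30.8, 30.8 and 27.0 CPM with DMSO, a rise of 0.89 ± 0.086 with Rapalink-1 (adjusted p = 2.2e-11). The Mios change with Rapalink-1 was 0.75 ± 0.10 (adjusted p = 1e-07) and that of Seh1l was -0.45 ± 0.065 (adjusted p = 2.2e-07). Itfg2, a KICSTOR subunit, rose in RNA by 0.74 ± 0.085 with Rapalink-1 (adjusted p = 1.8e-09).

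The sensors Sesn2 and Bmt2 had lower footprints with Rapalink-1. Sesn2, which senses leucine and is also a stress-induced gene, had RNA of 4.44, 4.63 and 3.95 CPM with Rapalink-1, 8.22, 4.88 and 5.74 CPM with rapamycin, and 10.7, 9.41 and 10.4 CPM with DMSO. Both drugs lay below DMSO, with log2 changes of -1.22 ± 0.19 for Rapalink-1 (adjusted p = 1e-06) and -0.71 ± 0.18 for rapamycin (adjusted p = 0.0029), and its footprints changed by -1.12 and -0.96. Bmt2, the S-adenosylmethionine sensor also called Samtor, had footprints of 3.39, 3.23 and 3.79 CPM with Rapalink-1, 8.98, 9.43 and 9.70 CPM with rapamycin, and 9.66, 10.2 and 12.7 CPM with DMSO. The Rapalink-1 values lay far below the rest, a change of -1.64 ± 0.19 (adjusted p = 1.7e-09), while its RNA differed by -0.20 (adjusted p = 0.18) and its efficiency changed by -1.39 ± 0.22 (adjusted p = 6.5e-07).

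Of 12 regulators and relatives of TSC and Rheb, 11 were tested, and Rapalink-1 raised the footprints of 2 and lowered those of 5 (25.7% higher and 28.0% lower over all genes), while rapamycin raised 2 and lowered 4 (8.75% and 9.40%). Their median footprint change was -0.03 with Rapalink-1 and -0.14 with rapamycin. The Rapalink-1 split turned round without TMM scaling, to 5 raised and 2 lowered with a median of 0.24: Prkag1 (0.06, adjusted p = 0.55), Prkab1 (0.00, adjusted p = 1.0) and Prkag2 (-0.38, adjusted p = 0.051), AMPK subunits, were no longer called, and Cab39 (0.28, adjusted p = 0.00060), Prkaa1 (0.24, adjusted p = 0.0089) and Strada (0.26, adjusted p = 0.015) were called higher. Over all genes 61.9% were then called in either direction, with a median of 0.28. The count lowered with Rapalink-1 was 3 without DMSO replicate 1, DMSO replicate 3 or Rapalink-1 replicate 1, where Prkag1 and Prkab1 were lost. The rapamycin split was 1 raised and 3 lowered without DMSO replicate 2, DMSO replicate 3, rapamycin replicate 1 or rapamycin replicate 2, where Stk11 and Strada were lost. Rhebl1, a Rheb relative that can also activate mTORC1, had RNA of 14.1, 14.3 and 17.2 CPM with Rapalink-1, 14.5, 16.6 and 12.5 CPM with rapamycin, and 5.47, 5.4 and 5.84 CPM with DMSO. RNA rose by 1.45 ± 0.16 with Rapalink-1 (adjusted p = 2.9e-10) and by 1.40 ± 0.16 with rapamycin (adjusted p = 3.2e-09), and the difference between the drugs was 0.05 ± 0.13 (adjusted p = 0.78). Rhebl1 footprints rose by 2.06 ± 0.18 with Rapalink-1 (adjusted p = 1.7e-12) and by 1.78 ± 0.18 with rapamycin (adjusted p = 1.3e-09), so the relative of Rheb changed in RNA with both drugs while Rheb RNA did not pass with either.

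Ddit4 (Redd1), a stress-induced activator of the TSC complex, had footprints of 32.1, 36.8 and 33.0 CPM with Rapalink-1, 39.9, 40.9 and 35.3 CPM with rapamycin, and 52.2, 45.0 and 52.4 CPM with DMSO. It fell in footprints by 0.57 ± 0.088 with Rapalink-1 (adjusted p = 8.8e-07) and by 0.38 ± 0.085 with rapamycin (adjusted p = 0.0014). Stk11 (Lkb1), the kinase that activates AMPK, had footprints of 19.8, 17.6 and 16.7 CPM with Rapalink-1, 15.1, 15.3 and 14.2 CPM with rapamycin, and 12.3, 10.1 and 10.7 CPM with DMSO. The log2 change was 0.70 ± 0.13 with Rapalink-1 (adjusted p = 2.4e-05) and 0.41 ± 0.13 with rapamycin (adjusted p = 0.024), the rapamycin call being lost without DMSO replicate 2 (0.36, adjusted p = 0.089), DMSO replicate 3 (0.38, adjusted p = 0.068), rapamycin replicate 1 (0.40, adjusted p = 0.070) or rapamycin replicate 2 (0.39, adjusted p = 0.072). Cab39, the scaffold of the Stk11 complex, fell in RNA by 0.54 ± 0.064 with Rapalink-1 (adjusted p = 2.9e-09), while its footprints differed by 0.00 ± 0.066 (adjusted p = 0.96). Prkaa2, a catalytic subunit of AMPK, which phosphorylates Tsc2, had a footprint change of -0.66 ± 0.11 with Rapalink-1 (adjusted p = 2.4e-06).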

How the data were processed

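Ribosome footprints and total RNA of GTML cells were measured in 18 libraries, which the labels' protocols attribute to the ARTseq kit, with an aliquot of each lysate taken for RNA. The genome builds named in the submitters' processing notes are GRCm38 and mm10; which aligner, counter and annotation were used, and whether counting used strand, is not given in the sources used here. Of the files, the count table deposited by the authors holds raw whole-number read counts per transcript, and the column headings name the libraries. The deposited comparison tables of the authors hold signal values (means of normalised counts), log2 fold changes with errors, a score (the test statistic) and p-values, raw and adjusted, per the file headers; only their gene names and a comparison of calls were used.

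The 27382 transcript rows were merged to 15307 features: rows with equal counts, or of 1 gene, became 1, and where counts differed, which happened for 62 features, the row with most reads was kept. Tsc1, Tbc1d7 and Flcn each had equal rows merged. Features passing filterByExpr (minimum count 10, minimum total 15) were fitted with edgeR 4.0.16 in R 4.3.3 (TMM scaling, robust glmQLFit, glmQLFTest): 11271 in RNA, 11281 in footprints and, as the assay by treatment interaction over 18 libraries, 10988 in efficiency. All 10 members passed in each. P-values were adjusted by Benjamini-Hochberg over all features. Standard errors are the absolute log2 change over the root of F. Residual spread (biological coefficient of variation) was 5.72% in RNA and 6.38% in footprints. Fits were tested on simulated data. CPM tables and figures used pandas 2.3.3 and matplotlib 3.10.9.

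RNA and footprints of a lysate are paired by the protocol. Their deviations from the group means correlated at -0.07 to 0.17, against -0.15 to 0.07 for unlike lysates of the same treatment. With DMSO alone the ranges were 0.15 to 0.17 and -0.15 to -0.01, while with either drug they touched or overlapped. The lysate block changed no member's call. Alternatives were edgeR with relative log expression (RLE) factors in place of TMM, the Wald test of DESeq2 1.42.0, and no TMM scaling. Others were no low-count filter, blocks, fits of the compared treatments alone, and leaving out each library or lysate. Members and pathway lists were chosen with earlier results of these data known. Genes named were the members and, per list and comparison, up to 3 called genes in each direction with the smallest p; a gene so named is also given in other measures, and genes that did not pass are given as values. A gene that this rule selects is left out of the text.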

Additional observations from a re-analysis of the deposited data

How the results depend on the processing

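The count of members called moved by more than 1.5 times in few settings. For rapamycin against DMSO it was 1 in footprints without TMM scaling (Rheb, 0.20, adjusted p = 0.045), against 0 with it (18.1% of all genes in either setting). When each library was left out in turn it ranged from 0 to 3 in RNA (2 with all) and from 0 to 1 in efficiency (1 with all). The share called over all genes then ranged from 17.4% to 24.2% in RNA and from 11.2% to 17.3% in efficiency. Without TMM scaling, members called with Rapalink-1 against DMSO split into 3 higher and 2 lower in RNA, against 3 and 1 with it, into 6 higher and 1 lower in footprints, against 4 and 1, and into 7 higher and 0 lower in efficiency, against 5 and 1. Over all genes 43.1% were then called in RNA (38.2% with it), 61.9% in footprints (53.7%) and 58.3% in efficiency (42.2%). Against rapamycin, Rheb RNA (-0.22, adjusted p = 0.0094), Tsc1 footprints (0.23, adjusted p = 0.039) and Nprl2 efficiency (0.47, adjusted p = 0.0058) were then also called. No member's called change reversed its direction in any alternative, and RLE factors in edgeR, DESeq2's Wald test and the lysate block changed no member's call. Sign changes without TMM scaling were noted only for list genes picked by the naming rule and called with or without that scaling. With Rapalink-1 against DMSO these were Prkag1 (0.06), Prkaa1 (0.24) and Strada (0.26) in footprints and Seh1l (0.09) and Sec13 (0.19) in efficiency. Sec13 efficiency against rapamycin also changed sign, to 0.04, and the cause was not tested. Genes called in neither setting may have changed sign as well and are not listed. Across treatments, same-numbered samples correlated at -0.18 to 0.05 in RNA, and samples of unlike number at -0.09 to 0.18. In footprints the ranges were -0.19 to 0.23 and -0.34 to 0.27. Most same-numbered footprint pairs lay above 0, so a weak pairing by replicate number there is not excluded. With the replicate number as a block, 6 members were called in footprints with Rapalink-1 against DMSO in place of 5 (54.4% of all genes in place of 53.7%). The addition was Rraga (-0.15, adjusted p = 0.048), and this block changed no other member's call. With the lysate as a block, the efficiency calls of Prkag2 with Rapalink-1 (-0.64, adjusted p = 0.053) and of Rragd (0.38, adjusted p = 0.051) and Nprl3 (0.38, adjusted p = 0.060) with rapamycin were lost and that of Itfg2 with Rapalink-1 was gained (-0.28, adjusted p = 0.048). Depth limits Tbc1d7 most, with as few as 53 RNA reads in a library.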

Other observations

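The authors' deposited tables of Rapalink-1 against DMSO and of rapamycin against DMSO gave the same calls for these genes. Of 60 values of the 10 members in RNA, footprints and efficiency, 18 had an adjusted p under 0.05 in the authors' deposited tables, 18 were called in the fits here, and 18 were called in both, with log2 changes no more than 0.03 apart. Genes most like a member in pattern were to be named for members called in RNA against DMSO with both drugs, and no member met that condition. Chosen after its values were seen, Fnip1 was among the 3 genes nearest to Flcn of 6130 candidates, by a root mean square difference of 0.16 over the log2 changes of RNA and footprints with both drugs. Cntrob also lay at 0.16 and Pot1a at 0.18. Flcn was not among the 3 genes nearest to Fnip1, which lay at 0.064 to 0.11. Those of the other members lay at 0.01 to 0.073, so Flcn had the farthest neighbours.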
